A study of Homo sapiens with 8 samples.

Results

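The genes described here are the cytosolic ribosomal protein genes, 87 of the 20037 protein-coding genes of the RefSeq table for GRCh38.p14. They were taken by symbol as RPL or RPS with a number and an optional suffix, together with *RPSA*, *RPLP0*, *RPLP1* and *RPLP2*, without the 10 *RPS6K* kinase genes, *RPS19BP1*, RPSA2, 3 read-through genes and all pseudogenes. They comprise 53 genes of the large subunit and 34 genes of the small subunit, and 10 of the 87 are variant paralogs of another member. H3K27ac, the acetylation of lysine 27 of histone H3, was mapped by ChIP-sequencing in a pair of lines made from MIA PaCa-2, an established line of epithelial cells from a human pancreatic carcinoma. MP2_HDAC1_OE carries the plasmid lentiSAMv2 with an *HDAC1* sgRNA, which brings a transcriptional activator to the promoter of *HDAC1* (CRISPR activation), and MP2_NTC carries lentiSAMv2 with a non-targeting sgRNA. Both lines also carry lentiMPHv2, which supplies the further activators of this system, so the control line has every component other than the guide to *HDAC1*. A single line stands for each condition, with 2 H3K27ac samples and 2 samples without an antibody, and the authors deposited 1 list of H3K27ac peaks for each line that pools both of its H3K27ac samples. The lists hold no replicates and no read counts, so the depth is unknown, no test between the lines was possible, and each difference below compares 1 list with 1 list.

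A ribosome is built of a large and a small subunit. Assembly of each subunit begins in the nucleolus, from ribosomal RNA and a set of proteins needed in matched amounts. The genes of these proteins are spread over the genome, are transcribed at a high rate in growing cells, and their mRNAs usually begin with a C and an unbroken run of pyrimidines, the terminal oligopyrimidine (TOP) tract, through which growth signals set their translation. H3K27ac is a mark of active promoters and enhancers, and *HDAC1* is an enzyme that removes acetyl groups from histones.

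The sequences around the annotated start of transcription are shown for members on which the comparison of the lines turned, since the TOP tract is the feature most of the family shares. Each run holds the last 15 bases before the start and the first 15 bases of the transcript, read 5′ to 3′ on the strand of the gene, from RefSeq in the GRCh38.p14 build, with a tract of a C and at least 4 further pyrimidines at the start in capitals. *RPL24*, *RPL14*, *RPL39* and *RPS25* had peaks of MP2_NTC alone, *RPS13* and *RPS9* had peaks of MP2_HDAC1_OE alone, *RPS6* had none, and *RPS23* was among the highest ranked in both lists.
RPL24: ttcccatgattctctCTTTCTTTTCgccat (chr3:101686704-101686733, minus strand)
RPL14: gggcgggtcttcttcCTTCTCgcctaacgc (chr3:40457324-40457353, plus strand)
RPL39: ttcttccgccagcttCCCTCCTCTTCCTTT (chrX:119791616-119791645, minus strand)
RPS25: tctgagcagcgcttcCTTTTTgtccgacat (chr11:119018329-119018358, minus strand)
RPS13: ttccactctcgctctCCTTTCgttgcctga (chr11:17077653-17077682, minus strand)
RPS9: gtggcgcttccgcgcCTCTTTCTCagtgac (chr19:54200843-54200872, plus strand)
RPS6: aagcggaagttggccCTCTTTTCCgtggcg (chr9:19380222-19380251, minus strand)
RPS23: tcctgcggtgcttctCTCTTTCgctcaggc (chr5:82278340-82278369, minus strand)
The annotated starts of *RPS4X* (peaks of MP2_NTC alone) and *RPL15* (a peak of MP2_HDAC1_OE alone) hold no such tract.
RPS4X: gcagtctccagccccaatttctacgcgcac (chrX:72277234-72277263, minus strand)
RPL15: ggcgctggggcctgctggaggagcttcacg (chr3:23916530-23916559, plus strand)
The 250 bases before the start are printed for *RPL24*, *RPS13* and *RPS6*, the member with the highest rank among those marked in MP2_NTC alone, the same for MP2_HDAC1_OE, and the one core gene with no peak. Capitals mark matches to CCGGAA (the core site of ETS factors) and GGGCGG (SP factors) on either strand.
RPL24: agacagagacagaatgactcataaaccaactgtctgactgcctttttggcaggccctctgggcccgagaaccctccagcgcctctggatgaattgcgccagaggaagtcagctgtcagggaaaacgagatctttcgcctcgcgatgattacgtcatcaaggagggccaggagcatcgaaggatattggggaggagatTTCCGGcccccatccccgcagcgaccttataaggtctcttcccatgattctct (chr3:101686719-101686968, minus strand)
RPS13: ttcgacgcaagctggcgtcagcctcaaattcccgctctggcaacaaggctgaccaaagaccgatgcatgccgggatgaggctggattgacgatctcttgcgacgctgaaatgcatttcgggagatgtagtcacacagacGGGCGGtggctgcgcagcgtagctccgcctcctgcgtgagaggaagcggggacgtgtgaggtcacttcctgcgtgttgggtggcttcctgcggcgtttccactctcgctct (chr11:17077668-17077917, minus strand)
RPS6: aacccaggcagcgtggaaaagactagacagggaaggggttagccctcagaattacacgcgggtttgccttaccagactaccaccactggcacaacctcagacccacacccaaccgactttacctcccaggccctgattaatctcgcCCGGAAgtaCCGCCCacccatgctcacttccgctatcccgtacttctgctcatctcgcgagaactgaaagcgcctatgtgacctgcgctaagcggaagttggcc (chr9:19380237-19380486, minus strand)
The ETS match of *RPL24* began 53 bases before the start on the other strand, and the SP match of *RPS13* began 111 bases before the start. *RPS6* had both, an ETS match 104 bases and an SP match 95 bases before its start.

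The MP2_HDAC1_OE list holds 25045 peaks with signal values up to 185 and the MP2_NTC list 22569 peaks with signal values up to 220. The signal is the value the peak caller gave to each peak, and because the sources do not say how it was scaled in each list it was read as a rank, the percentage of the peaks of the same list with a lower signal. At *HDAC1*, the activated gene, the strongest peak ranked at 93.9 in MP2_HDAC1_OE and at 45.2 in MP2_NTC. These peaks did not overlap, and the signals of all peaks at the gene summed to 128 over 2 peaks in MP2_HDAC1_OE and to 126 over 3 peaks in MP2_NTC. Of the markers of epithelial and mesenchymal cells, *KRT8*, *KRT18*, *KRT19* and *VIM* had peaks in both lists and *KRT7*, *EPCAM* and *CDH1* had none in either. The neighbours *KRT8* and *KRT18* had the same strongest peak in each list. At *KRT19* the peaks of the lists did not overlap, and that of MP2_NTC ranked at 6.86. Peaks of the lists were merged into a region where they shared at least 1 bp, and a region was unique to a line where all of its peaks came from that line. A peak or region was assigned to a gene where it came within 2 kb of an end of the gene on the outside or within 1 kb on the inside.

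Nearly all cytosolic ribosomal protein genes carried H3K27ac. A region of either line was found at 81 of 87 members (93.1%), beside 48.5% of all protein-coding genes. Peaks of MP2_HDAC1_OE were present at 74 members (all genes 43.3%) and peaks of MP2_NTC at 78 members (all genes 42.2%). Peaks of both lists were at 71 members, beside 7400 of all 20037 genes. At 49 members every region was shared between the lines, 60.5% of those with a region, near the 57.6% of all genes with a region. A region unique to MP2_HDAC1_OE lay at 16 members, beside 12.1% of all genes, and a region unique to MP2_NTC at 24 members, beside 10.4% of all genes. Since a gene with no region cannot have a unique one, the shares were also taken over the genes with a region, where 19.8% of members had a region unique to MP2_HDAC1_OE (all genes 25.0%) and 29.6% had one unique to MP2_NTC (all genes 21.4%). Thus more members had regions unique to MP2_NTC than to MP2_HDAC1_OE, while over all genes the order was the other way round. These counts depended on what counts as unique, with 6 and 14 members after peaks up to 500 bp apart were merged and 47 and 53 members where single peaks had to overlap by 50% of both, for MP2_HDAC1_OE and MP2_NTC respectively. The shares over all genes were not taken under these other definitions, so the contrast with all genes holds for the first definition alone.

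**Figure D1:**
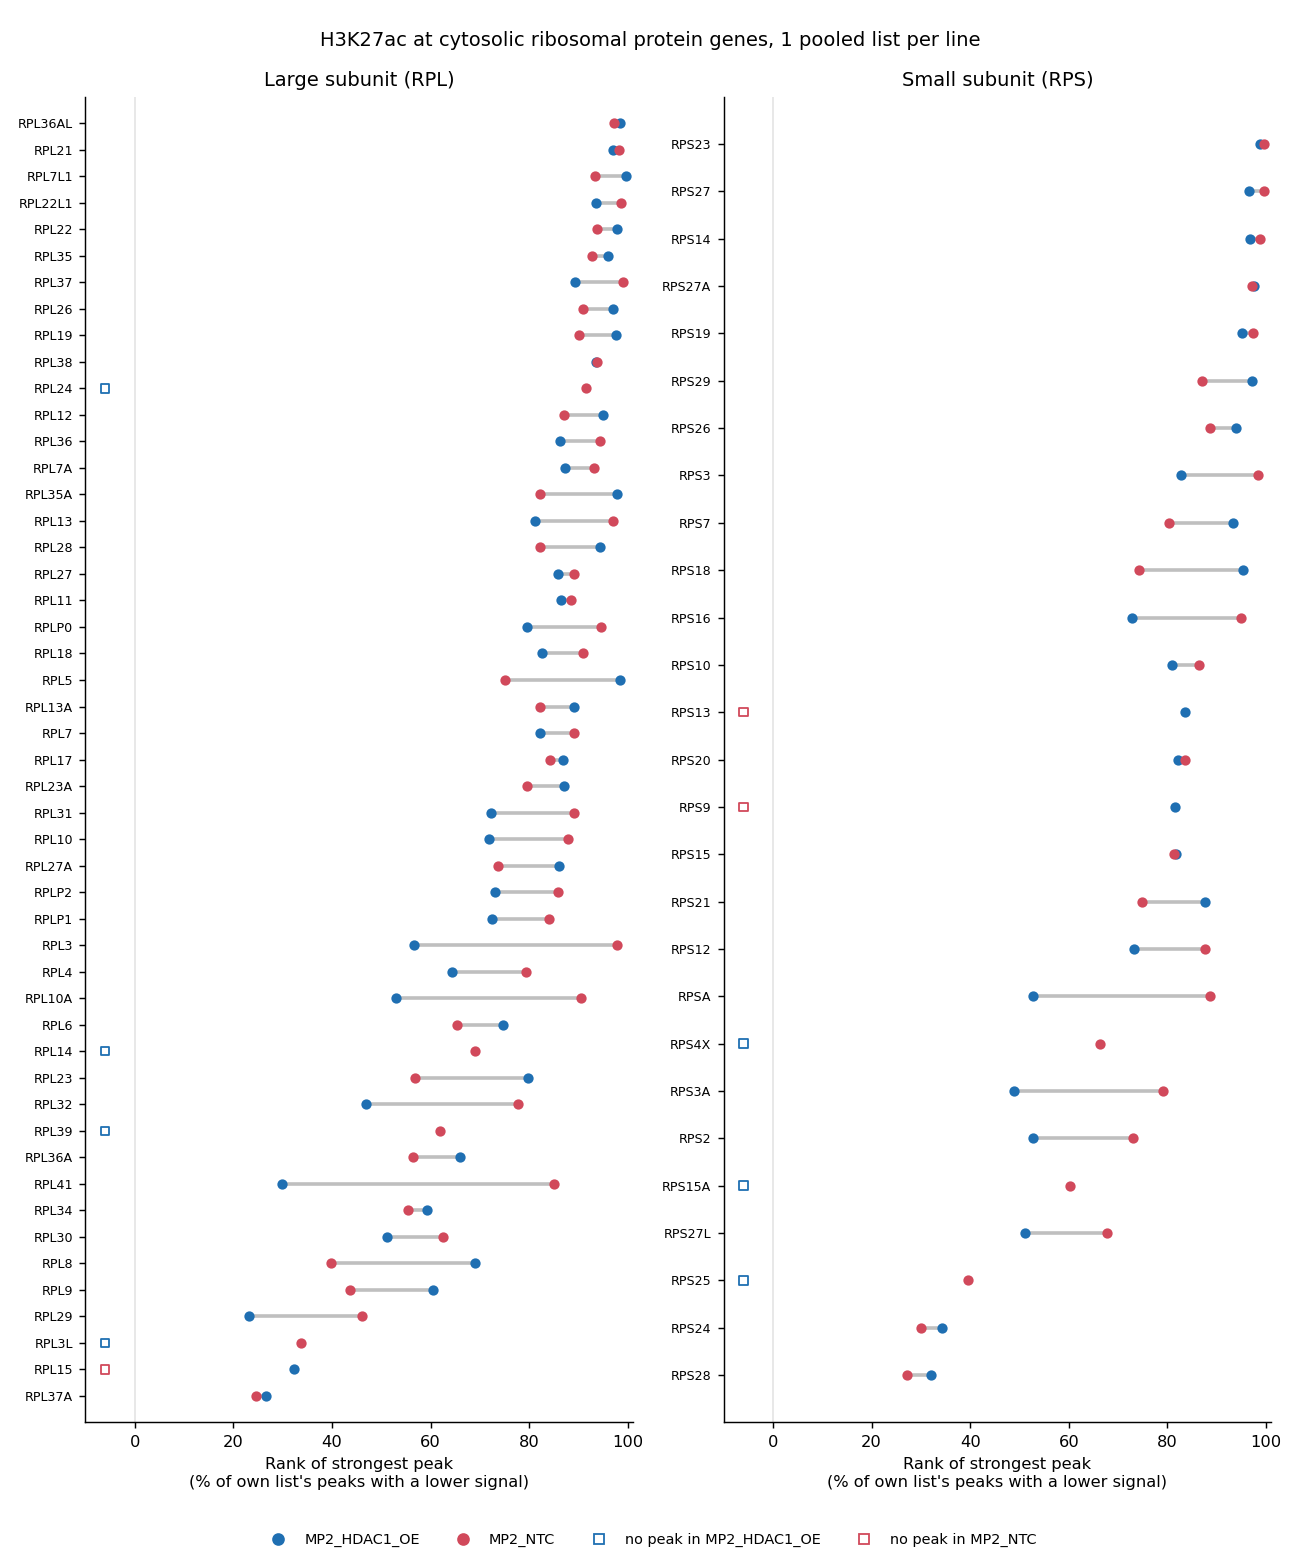
Rank of the strongest H3K27ac peak (horizontal axis, percentage of the peaks of the same list with a lower signal) at 76 of the 81 ribosomal protein genes with a region (vertical axis, sorted by the mean of the ranks), with 1 pooled list per line. Filled points are the lines, grey bars join them, and open squares mark the 7 members with no MP2_HDAC1_OE peak and the 3 with no MP2_NTC peak. Most points lie above 60, and RPL41 and RPL3 have the longest bars shown, with MP2_NTC to the right.

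Of the 6 members with no region, 5 are variant paralogs. *RPL10L* and *RPL39L* are copies of *RPL10* and *RPL39* known for expression in the testis, and *RPS4Y1* and *RPS4Y2* are the chromosome Y copies of *RPS4X*, where neither list holds a peak on the whole of chromosome Y. *RPL26L1*, a copy of *RPL26*, had peaks of both lists outside its windows, because its RefSeq start lies 4635 bp inside the gene, and these reached a rank of 71.4 in MP2_HDAC1_OE (chr5:172959248-172960067) and of 93.7 in MP2_NTC (chr5:172959425-172959883). The single core gene with no region was *RPS6* (chr9:19375715-19380236), whose protein is the classical substrate of the ribosomal S6 kinases. Its nearest peak was 144.8 kb away in either list. *RPS6* was the first gene inside a stretch of 7.66 Mb of chromosome 9 (chr9:19230893-26892391) that held 31 protein-coding genes and no peak of either line. Of the 50 stretches of at least 5 Mb between neighbouring peaks of the pooled lists, this was the only one to hold a ribosomal protein gene.

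In 10 members all regions were unique to 1 line. Peaks of MP2_NTC alone were found at 7 members (8.64% of those with a region, all genes 10.8%) and peaks of MP2_HDAC1_OE alone at 3 members (3.70%, all genes 13.1%). *RPL24*, whose protein forms a bridge between the subunits, stood highest, with MP2_NTC signals of 93.5 and 28.9 for its 2 peaks (chr3:101686152-101686691) and a rank of 91.5, while the nearest MP2_HDAC1_OE peak was 3473 bp from the gene. *RPL14* had 3 MP2_NTC peaks, the strongest with a signal of 62.3 and a rank of 69.0 (chr3:40457301-40457569), and its nearest MP2_HDAC1_OE peak lay 4173 bp away. *RPS4X*, the X-linked copy of the small subunit protein eS4, had 1 MP2_NTC peak with a signal of 60.2 and a rank of 66.4 (chrX:72276510-72277329). These 3 genes thus had no MP2_HDAC1_OE peak at a site where the MP2_NTC peak stood in the upper part of its list.

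*RPL39*, a protein of the exit tunnel of the ribosome, had 2 MP2_NTC peaks with signals of 56.7 and 52.3 and a rank of 61.9. *RPS15A* had 1 MP2_NTC peak with a signal of 55.6 and a rank of 60.3, which also lay in the window of *ARL6IP1*. *RPS25* had 1 with a signal of 43.7 and a rank of 39.5, shared with the window of *TRAPPC4*. *RPL3L*, the copy of *RPL3* used in muscle, had 1 with a signal of 40.6 and a rank of 33.7, 1157 bp outside the gene and in the window of *MSRB1*. The nearest MP2_HDAC1_OE peak was 61.0 kb away at *RPL39*, 69.6 kb at *RPS4X* and between 9149 and 11842 bp at the other 3.

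In the other direction, *RPS13* had 2 MP2_HDAC1_OE peaks with signals of 72.2 and 13.6 and a rank of 83.6 (chr11:17077305-17077661), and the nearest MP2_NTC peak lay 130492 bp from the gene. *RPS9*, which binds the small ribosomal RNA early in assembly, had 1 peak with a signal of 69.7 and a rank of 81.6 (chr19:54200375-54200777). *RPL15*, a gene linked to Diamond-Blackfan anemia, had 1 peak with a signal of 37.9 and a rank of 32.3 (chr3:23916927-23917746). The nearest MP2_NTC peak was 8702 bp from *RPS9* and 20480 bp from *RPL15*. *RPS13* and *RPS9* therefore ranked above 80% of the MP2_HDAC1_OE list at sites with no MP2_NTC peak, and *RPL15* in the lower part.

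At 4 further members, *RPL37A*, *RPL41*, *RPL9* and *RPS2*, both lines had peaks but at no common place. A shared region lay at 67 members, of which 71 had peaks of both lists. Over all genes a shared region lay at 7220, and 7400 had peaks of both lists. At *RPL41*, which encodes the smallest ribosomal protein, the strongest MP2_NTC peak had a signal of 80.5, a rank of 85.0 and a summit 297 bp after the start (chr12:56116714-56117123). Its 4 MP2_HDAC1_OE peaks flanked that place, with summits between 1258 and 625 bp before the start and, for the strongest, 3373 bp after it, and the highest of their signals was 36.6. *RPS2*, which lines the entry of the mRNA channel, had 5 MP2_NTC peaks with signals of 12.6 to 65.9 and 1 MP2_HDAC1_OE peak with a signal of 47.8.

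Where present, the strongest peak of a member usually stood high in its list. The median rank was 82.2 in MP2_HDAC1_OE (quartiles 65.5 and 94.3) and 86.2 in MP2_NTC (73.8 and 93.3), beside 76.5 and 74.5 over all protein-coding genes with a peak. The strongest peak stood above 90% of its list at 23 of 74 members in MP2_HDAC1_OE (31.1%, all genes 24.6%) and at 28 of 78 members in MP2_NTC (35.9%, all genes 23.1%). Counted among the strongest peaks of genes alone, the median member ranked at 59.7 in MP2_HDAC1_OE and at 69.5 in MP2_NTC.

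*RPS23*, *RPS27*, *RPL37* and *RPS14* were among the highest ranked members in MP2_NTC, and each also stood above 89% of the MP2_HDAC1_OE list. *RPS23*, a protein of the decoding center, had signals of 158 in MP2_NTC (rank 99.6) and 118 in MP2_HDAC1_OE (rank 98.7), with 3 overlapping peaks in each list. *RPS27*, known also as metallopanstimulin, had signals of 156 (rank 99.5) and 102 (rank 96.6). *RPL37* had signals of 141 (rank 99.0) and 81.0 (rank 89.2). *RPS14*, the gene whose loss of a copy marks a myelodysplastic syndrome, had signals of 133 (rank 98.7) and 103 (rank 96.8). The peaks of the lines overlapped at each of these genes.

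*RPL7L1*, *RPS23*, *RPL5* and *RPL36AL* were among the highest ranked members in MP2_HDAC1_OE. At *RPL7L1*, a paralog of *RPL7* that acts in ribosome assembly, the signal of 133 (rank 99.6) came from a peak 11078 bp after the start (chr6:42890442-42890916), at the far end of the gene and in the window of *PEX39*. With the 5′ end alone, *RPL7L1* ranked at 79.6 in MP2_HDAC1_OE and at 93.3 in MP2_NTC. *RPL36AL*, a paralog of *RPL36A*, had signals of 114 in MP2_HDAC1_OE (rank 98.4) and 119 in MP2_NTC (rank 97.3), with summits 161 and 160 bp after its start, at a place also in the window of *MGAT2*. The strongest peak of a member lay in the window of another protein-coding gene as well at 34 of the 81 members, and to which gene such a peak belongs was not tested.

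Low ranks in MP2_HDAC1_OE belonged to *RPL29* (23.2), *RPL37A* (26.7), *RPL41* (29.9) and *RPS28* (32.0). Those of MP2_NTC belonged to *RPL37A* (24.6), *RPS28* (27.2), *RPS24* (29.9), *RPL3L* (33.7) and *RPS25* (39.5). *RPL37A* and *RPS28* were thus low in both lists, with signals of 34.5 and 37.7 in MP2_HDAC1_OE and of 35.6 and 37.2 in MP2_NTC. *RPS24*, a Diamond-Blackfan anemia gene like *RPS28*, had signals of 38.9 and 38.7.

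Between the lines, members ranked lower in MP2_HDAC1_OE somewhat more often than higher. Among the 71 members with peaks in both lists the median rank difference, MP2_HDAC1_OE minus MP2_NTC, was -1.88 percentage points (quartiles -14.6 and 6.12), and 41 of them (57.7%) ranked lower in MP2_HDAC1_OE, beside 45.5% of all genes, whose median difference was 1.10. The median size of the difference without its sign was 9.52 points among members and 11.4 over all genes. The 95% interval of the members' median, from its order statistics, ran from -6.72 to 2.00. This interval treats genes as independent draws, though they are not replicates, and it holds no variation between samples. When the same place was compared, over the 84 shared regions at members, 43 ranked lower and 41 higher in MP2_HDAC1_OE. Their median difference was -0.58 points. Over all 9477 shared regions, including those away from genes, 45.3% ranked lower and the median was 1.51 points. At 15 of the 71 members the strongest peaks of the lines stood at different places. This count was not taken over all genes, so whether it is particular to members is unknown.

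Among the members that ranked lower in MP2_HDAC1_OE by the most were *RPL41*, *RPL3*, *RPL10A* and *RPSA*. *RPL41* differed by -55.1 points between peaks at different places. *RPL3*, which reaches toward the peptidyl transferase center, differed by -41.3 points between overlapping peaks before its start, with ranks of 56.6 and 97.9 and summits 519 and 535 bp before the start. *RPL10A* differed by -37.5 points (signals 48.0 and 91.1), and *RPSA*, also known as the laminin receptor precursor, by -35.8 points (signals 47.9 and 87.0, summits 180 and 160 bp after the start). At *RPL3* and *RPSA* the summits lay within 20 bp of each other, so at these genes the same place was compared.

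Of the 30 members that ranked higher in MP2_HDAC1_OE, *RPL8*, *RPL5*, *RPL23*, *RPS18* and *RPL9* had the largest differences. *RPL8*, next to the peptidyl transferase center, had signals of 57.9 (rank 69.0) and 43.8 (rank 39.7), a difference of 29.3 points. *RPL5*, which with *RPL11* and the small ribosomal RNA of the large subunit can bind MDM2, had signals of 115 (rank 98.4) and 67.8 (rank 75.1), a difference of 23.3 points at a place also in the window of *DIPK1A*. *RPL23* differed by 22.9 points (signals 67.6 and 53.3). *RPS18* (21.1 points) and *RPL9* (16.7 points) had their strongest peaks at different places in the lines and within windows of *VPS52* and *LIAS*. By the strongest peak, the largest difference in this direction was less than the size of each of the 4 named in the other. Single shared regions differed by more in both directions. At *RPL28* a shared region ranked at 94.4 in MP2_HDAC1_OE and at 30.5 in MP2_NTC, a difference of 63.8 points, and another differed by -58.0 points. At *RPL12* a shared region differed by -70.6 points.

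**Figure D2:**
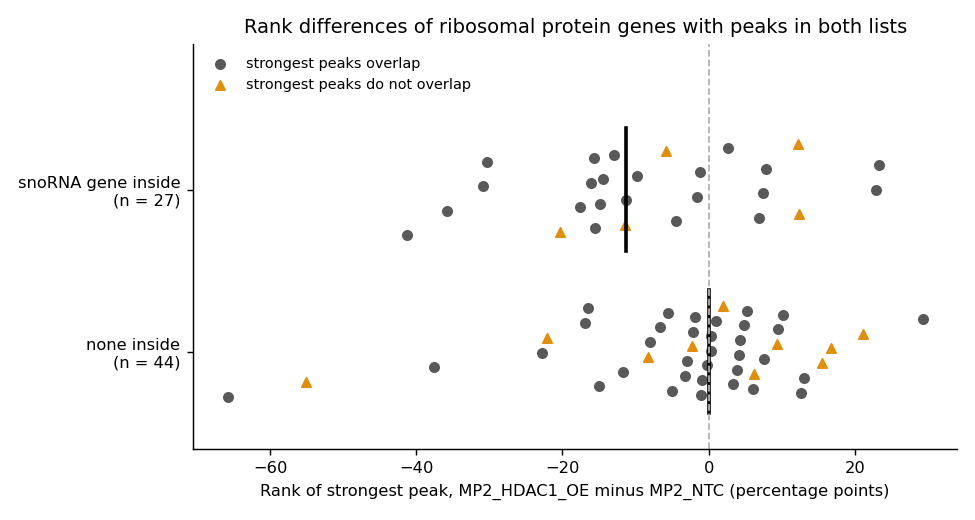
Difference in the rank of the strongest peak between the lines (horizontal axis, MP2_HDAC1_OE minus MP2_NTC, percentage points) for the 71 ribosomal protein genes with peaks in both lists, split into 27 that hold a snoRNA gene and 44 that do not; vertical position within a row has no meaning. Circles are members whose strongest peaks overlap between the lines, triangles those where they do not, and black bars the medians of -11.2 and 0.04.

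Small nucleolar RNAs, which guide the modification of ribosomal RNA, are often encoded in introns of ribosomal protein genes, and 29 members (33.3%) held a snoRNA gene, beside 2.63% of all protein-coding genes. This split was added after the values were seen. Of the 27 hosts with peaks in both lists, 19 (70.4%) ranked lower in MP2_HDAC1_OE and 8 higher, with a median difference of -11.2 points. Of the 44 members without a snoRNA gene, 22 ranked lower and 22 higher, with a median of 0.04. Over all genes with peaks in both lists 45.5% ranked lower, and hosts of snoRNA genes other than members were not taken separately. *RPL3*, with 4 snoRNA genes, and *RPSA*, with 2, were among the hosts lower in MP2_HDAC1_OE, while *RPL5* and *RPL23*, with 2 each, were hosts higher in MP2_HDAC1_OE. The median ranks of the hosts were 80.9 in MP2_HDAC1_OE and 83.9 in MP2_NTC, beside 84.3 and 88.6 for the other members, and their difference was not tested.

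A member with a peak had on average 2.59 peaks in MP2_HDAC1_OE and 2.68 in MP2_NTC, beside 2.17 and 2.13 over all genes. *RPL18* and *RPL35A* had 5 peaks in MP2_HDAC1_OE and 6 in MP2_NTC, *RPL7L1* had 6 and 5, and *RPL13* and *RPL26* had 4 and 5. The lists often give several summits inside 1 interval, and counted as non-overlapping intervals the averages were 1.5 and 1.46. Members are short, with a median length of 5057 bp beside 24115 bp over all genes, and the windows of the ends meet or overlap in many of them, with 17 members of at most 3000 bp and 54 of at most 6000 bp.

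The place of the strongest peak was taken for the 70 members with a RefSeq start and strand, within 2 kb before and 1 kb after the start. The strongest summit lay after the start at 35 of 60 members (58.3%) in MP2_HDAC1_OE and at 46 of 62 members (74.2%) in MP2_NTC, beside 60.1% and 61.1% of all genes. The median summit of members lay 161.5 bp after the start in MP2_HDAC1_OE and 260.0 bp after it in MP2_NTC, beside 140.0 and 151.0 bp over all genes. Of the 57 members with peaks of both lists there, 27 had summits within 100 bp of each other. In 13 the summit lay before the start in MP2_HDAC1_OE and after it in MP2_NTC, and in 3 the other way round. *RPS14* was of the first kind, with its strongest summit 154 bp before the start in MP2_HDAC1_OE and 348 bp after it in MP2_NTC, although both lists held peaks at both places. The counts of summit pairs were not taken over all genes, so whether they are particular to members is unknown. The annotated start itself lay inside a peak at 31 of 60 members (51.7%) in MP2_HDAC1_OE and at 32 of 62 (51.6%) in MP2_NTC, below the 57.6% and 60.2% of all genes with a peak there.

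**Figure D3:**
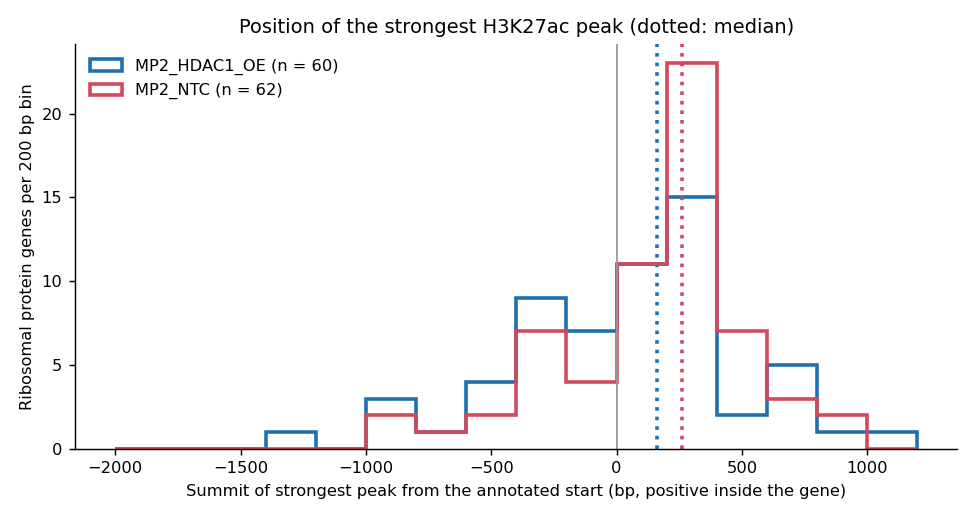
Distance of the strongest H3K27ac summit from the annotated start (horizontal axis, bp, positive inside the gene) for ribosomal protein genes with a peak at the start, counted in bins of 200 bp, for 60 genes in MP2_HDAC1_OE and 62 in MP2_NTC. Dotted lines are the medians, 161.5 bp and 260.0 bp, and the bin from 200 to 400 bp holds more genes in MP2_NTC than in MP2_HDAC1_OE.

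The subunits gave similar values. Of the 53 large subunit genes, 50 had a region, with median ranks of 82.5 in MP2_HDAC1_OE and 87.1 in MP2_NTC, and of the 34 small subunit genes 31 had one, with median ranks of 81.9 and 85.0. A region unique to MP2_NTC lay at 16 large and 8 small subunit genes, and one unique to MP2_HDAC1_OE at 11 and 5. In the small subunit 17 of 26 genes (65.4%) ranked lower in MP2_HDAC1_OE and in the large subunit 24 of 45 (53.3%), beside 45.5% of all genes. Of the 10 variant paralogs 5 had a region, against 76 of the 77 other members, and *RPL7L1*, *RPL22L1*, *RPL36AL* and *RPS27L* were marked in both lines. All 19 members linked to Diamond-Blackfan anemia, an inherited failure of red cell production, had a region, and 9 of the 17 with peaks in both lists ranked higher in MP2_HDAC1_OE. On chromosome 19, which holds the most members, all 12 had a region. Of the 4 members on chromosome X 3 had a region unique to MP2_NTC, as did 3 of the 4 on chromosome 16. The shares over all genes of these chromosomes were not taken.

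**Figure D4:**
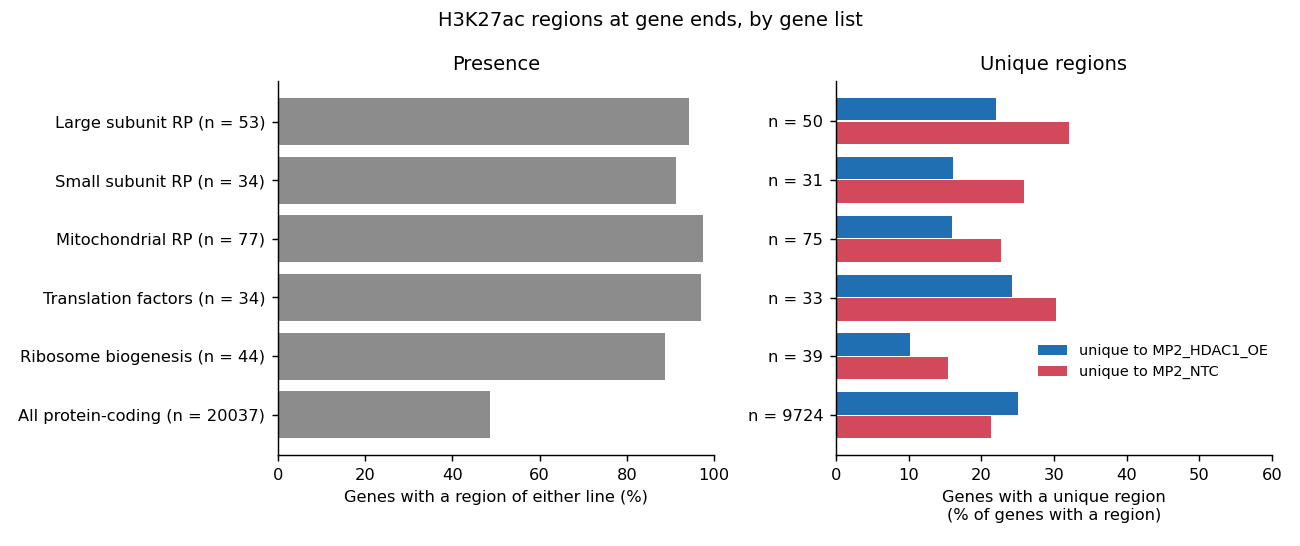
Left, share of genes with an H3K27ac region of either line (percent of the genes of each list, n beside each bar); right, share of the genes with a region that had a region unique to MP2_HDAC1_OE (blue) or to MP2_NTC (red). Presence was 94.3% and 91.2% in the large and small subunit lists and 48.5% over all protein-coding genes, and the MP2_NTC bar is the longer in each list other than all genes.

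Other gene lists of protein synthesis gave similar values for presence. Of 77 mitochondrial ribosomal protein genes, which encode the separate ribosome of that organelle, 75 had a region, with median ranks of 79.9 in MP2_HDAC1_OE and 84.6 in MP2_NTC and a median difference of 0.64 points. Of 34 translation factors 33 had a region, and 17 of the 28 with peaks in both lists ranked lower in MP2_HDAC1_OE (median difference -3.27). Of 44 ribosome biogenesis genes 39 had a region, and 21 of the 35 with peaks in both lists ranked higher in MP2_HDAC1_OE (median difference 4.21). Regions unique to MP2_NTC were at 17 mitochondrial ribosomal protein genes (22.7% of those with a region), 10 translation factors (30.3%) and 6 biogenesis genes (15.4%), beside 21.4% of all genes with a region. Regions unique to MP2_HDAC1_OE were at 12 (16.0%), 8 (24.2%) and 4 (10.3%) genes of these lists, each share below the 25.0% of all genes with a region.

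The TOP tract was read at the annotated starts of the 70 members with a RefSeq promoter entry. A C with at least 4 pyrimidines after it stood at the start of 44 members (62.9%), beside 4.60% of the 15842 promoters and 5.71% of the promoters of genes with a region. The tract was at 42 of 62 core members and 2 of 8 variant paralogs, and it reached from the start site over 10 bases in *RPL24*, 9 in *RPS6* and *RPS9* and 6 in *RPS13*. Of the 44 members with a tract 42 had a region. Of the 36 of them with peaks in both lists 22 (61.1%) ranked lower in MP2_HDAC1_OE, with a median difference of -2.09 points (quartiles -13.3 and 4.77). Of the 26 without a tract 23 had a region, and 9 of 21 (42.9%) ranked lower, beside 45.5% of all genes. The median difference of these 21 was 0.37 points (quartiles -15.7 and 6.21), and members with and without a tract were not tested against each other. Of those with a region, a region unique to MP2_NTC lay at 15 members with a tract (35.7%) and 4 without (17.4%), beside 21.4% of all genes with a region. One unique to MP2_HDAC1_OE lay at 10 (23.8%) and 3 (13.0%), beside 25.0%. The split rests on the annotated start, and within 5 bases of it a tract stood at 53 members. Those counted as without a tract include *RPL6*, *RPL26L1*, *RPL27* and *RPL32*, whose annotated starts lie 7393, 4635, 146 and 17 bp inside the gene.

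In the 300 bases around the start, on either strand, CCGGAA was found at 38 members (54.3%), beside 22.9% of all promoters and 33.4% of those of genes with a region. GGGCGG was found at 37 members (52.9%), beside 58.5% of all promoters and 71.4% of those of genes with a region. AAGATGGC (YY1) was found at 7 members (10.0%), beside 3.91% and 6.29%, and CACGTG (the E-box) at 4 (5.71%), beside 8.88% and 10.9%. TATAAA, the core element bound by TBP, was found at 7 members (10.0%), beside 9.63% of all promoters and 5.17% of those of genes with a region. No motif contains another, though neighbouring matches can share bases at their ends, and a match is a description of the sequence, not of a bound factor.

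*FAU* and *RACK1* belong to the cytosolic ribosome but have symbols outside the naming rule. *FAU*, which encodes a fusion of a ubiquitin-like protein and a small subunit protein, had 1 MP2_HDAC1_OE peak with a signal of 38.3 (rank 33.2) and 3 MP2_NTC peaks of which the strongest had a signal of 81.9 (rank 85.9), all in regions unique to their line. *RACK1*, a signaling scaffold on the small subunit, ranked at 98.6 in MP2_HDAC1_OE and at 98.7 in MP2_NTC, with 3 and 6 peaks.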

How the data were processed

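H3K27ac ChIP-sequencing of MP2_HDAC1_OE and MP2_NTC was used, with 2 H3K27ac samples and 2 control samples per line. The authors followed the ENCODE pipeline and deposited 1 peak list per line, the optimal set of their reproducibility test (IDR), whose column 7 holds a signal value per peak. The submitters' processing notes name BWA 0.7.12, SAMtools, Picard 1.88 and hg38, and the peak caller is not given in the sources used here. The lists hold no counts, so depth and precision are unknown, and the scaling of the signal between the lists is not known. A list that holds fewer peaks gives the same signal a different rank.

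Genes came from the RefSeq table of GRCh38.p14, and starts, strands and promoter sequences from the RefSeq promoter table, which was matched by gene ID for 70 of the 87 members. The 17 without an entry include RPL23, RPL23A, RPL30, RPL37, RPL39L, RPL3L, RPL5, RPL7, RPL8, RPS15A, RPS2 and RPS20. Windows ran from 2 kb outside to 1 kb inside either gene end, without regard to strand. Each gene was given by its strongest peak. Shares and medians stand beside those of all protein-coding genes without a test, since each line has 1 list and genes are not replicates.

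The members and lists were chosen with earlier results of these data known. Members are named that have no region, regions of 1 line alone, 1 of the 5 highest or lowest ranks of a list, 1 of the 5 largest rank differences in each direction or the most peaks, together with RPS4X, FAU and RACK1. Some genes that meet this rule are not reported here by name and are left out of the plot of ranks by gene, though they enter every count and median. Other members are named as examples chosen after their values were seen. Alternatives changed the window, the definition of unique, the number of peaks, the rank and the tract. The code ran in Python 3.11.15, with pandas 2.3.3 and numpy 2.4.6 for the tables, scipy 1.17.1 for the intervals of medians and matplotlib 3.10.9 for the plots. On simulated data all 600 genes were put in the right class.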

Additional observations from a re-analysis of the deposited data

How the results depend on the processing

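The lists pool both samples of a line, so no replicate could be left out in turn, and depth sets no measured limit. No paired analysis was possible because no result comes from a test and the samples of a line are pooled. Of 63 alternative values for 11 results, 50 kept within 1.5 times the reported count or within the interval of the reported median. Members with a region unique to MP2_NTC numbered 14 at the 5′ end alone, where 17 members have no start (19 among the 70 with one, an alternative chosen after seeing the data). With single peaks and an overlap of 50% of both, members with a unique peak numbered 47 in MP2_HDAC1_OE and 53 in MP2_NTC, and with gaps of up to 500 bp merged, 6 and 14. More members had a region unique to MP2_NTC than to MP2_HDAC1_OE in every alternative run, though by few at the 5′ end alone (14 and 11). These counts were not taken over all genes in the alternatives, so whether members differ from all genes there is unknown. The median rank in MP2_HDAC1_OE was 76.4 among the 75% of peaks with the highest signal, since the lowest peaks leave the list. Ranked among genes by summed signal the medians were 64.2 in MP2_HDAC1_OE and 68.3 in MP2_NTC, and by the strongest peak 59.7 and 69.5; these ranks have genes, not peaks, as their denominator. Peaks per member were 1.5 and 1.46 as non-overlapping intervals. With at least 7 pyrimidines the tract stood at 24 members (34.3%, all promoters 1.72%). Within 5 bases of the start it stood at 53 (75.7%), where the share of all promoters also rose, to 22.1%. The median rank difference was below 0 in each alternative, from -6.55 to -1.20. Members with a region numbered 80 or 81 in the alternatives that count all members.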

Other observations

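Ribosomal protein genes have left many processed copies in the genome. Of 1994 RPL and RPS pseudogenes in the RefSeq table, 62 had a peak of either list in the same windows, and 16 (0.802%) had one that lay outside the window of every protein-coding gene. Of these 16, 10 had a peak of MP2_HDAC1_OE, 11 a peak of MP2_NTC and 5 both. The highest rank among them was 89.4, for an MP2_NTC peak at RPLP1P13 (chr13:23373423-23374016), where the MP2_HDAC1_OE peak ranked at 52.4. A peak reached the body of a pseudogene in 3 cases, RPS27P30 in MP2_NTC (rank 43.2) and RPS2P32 (rank 62.1) and RPS20P31 (rank 44.5) in MP2_HDAC1_OE. Reads of near-identical copies can be hard to place, and how such reads were treated was not tested.

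RPLP0, the stalk protein that anchors RPLP1 and RPLP2, was picked after its values were seen because its order depended on the window. With both gene ends it ranked at 79.6 in MP2_HDAC1_OE and 94.7 in MP2_NTC, and with the 5′ end alone at 74.2 and 26.4.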
